A study of Homo sapiens and Mus musculus with 16 samples.

Results

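The regions described here are the accessible regions of human chromosomes 4 and 10 in HPAF-II, a human pancreatic adenocarcinoma cell line. The 2 chromosomes were chosen by the readout itself, because among the autosomes they lay at opposite ends of the share of regions found in only 1 of the control and HNF4G-KO lists. Members were all regions listed on either chromosome. They made up 10274 of the 118107 regions in the control list (5143 on chromosome 4 and 5131 on chromosome 10) and 8388 of the 97047 regions in the HNF4G-KO list (3644 and 4744). The study comprised 16 ATAC-seq samples in 4 groups, of which the 2 HPAF-II groups are used here, each with 4 replicates. Control cells had the genotype label WT and the treatment label CRISPR-Cas9, and HNF4G-KO cells had the labels KO and CRISPR-HNF4G-KO, with both groups grown in MEM with fetal bovine serum according to the labels. The knockout population was a pool of clones, each grown from a single edited cell of this 1 cell line. The study's methods report the clones as knockouts and write the pool as HNF4G-/-. The same methods also call their frameshift changes heterozygotic. HNF4G itself lies on neither chromosome. Each group was deposited as 1 region list standing for its 4 replicates, so no spread between replicates could be computed and the depth behind the regions is unknown.

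HNF4G is a nuclear receptor, closely related to HNF4A, that binds DNA at enhancers and promoters of gut, liver and pancreatic epithelium. ATAC-seq marks open chromatin through a transposase that inserts sequencing adapters where nucleosomes leave the DNA exposed. The reads from a stretch of chromosome grow with its openness and also with the number of copies of it in the cells, and cancer cell lines and clones grown from them often differ in copies of whole chromosomes or arms. Copy number was not measured in these files, and in region lists it cannot be told apart from openness per copy.

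Epithelial identity was in place in both lists. All 9 markers of pancreatic ductal epithelium (KRT19, KRT7, KRT8, KRT18, EPCAM, CDH1, MUC1, SOX9 and CLDN4) had a region over an annotated start site in each list. Start-site regions were found for 0 of 3 endothelial markers in each list, for 0 of 4 acinar markers in control and 1 of 4 (CPA1) in HNF4G-KO, for 2 of 6 fibroblast markers (COL1A1 and PDGFRB) and for 2 of 4 leukocyte markers (CD14 and LYZ) in both lists. An open start site is not proof of expression.

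A few of the regions that moved most are shown here so that the sequences can be read beside their values. Each is the central 200 bp of a region on the plus strand of hg38, in lower case, with matches to 4 consensus sequences on either strand in capitals. For HNF4 factors the letters searched were CAAAGTCCA. For the forkhead factors of the FOXA family, pioneer factors of endoderm, they were TGTTTAC. For the zinc finger factors of the GATA family they were AGATAAG. For AP-1, the site of FOS and JUN factors, they were TGANTCA, where N stands for any base. On chromosome 4, the highest-scoring control-only region, the highest-scoring control-only region with an HNF4 match and the HNF4-matched shared region that dropped furthest in rank among those paired 1 to 1 were as follows.
chr4 control-only, chr4:136320177-136320376: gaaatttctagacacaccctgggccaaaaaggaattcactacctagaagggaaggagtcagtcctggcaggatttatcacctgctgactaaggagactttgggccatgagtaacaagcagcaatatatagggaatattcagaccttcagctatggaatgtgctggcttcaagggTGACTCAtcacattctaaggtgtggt
chr4 control-only with HNF4, chr4:85459814-85460013: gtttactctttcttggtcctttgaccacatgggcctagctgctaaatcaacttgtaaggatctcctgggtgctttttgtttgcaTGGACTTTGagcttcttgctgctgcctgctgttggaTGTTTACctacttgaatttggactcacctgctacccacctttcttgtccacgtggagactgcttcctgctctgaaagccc
chr4 shared and lowered with HNF4, chr4:157280796-157280995: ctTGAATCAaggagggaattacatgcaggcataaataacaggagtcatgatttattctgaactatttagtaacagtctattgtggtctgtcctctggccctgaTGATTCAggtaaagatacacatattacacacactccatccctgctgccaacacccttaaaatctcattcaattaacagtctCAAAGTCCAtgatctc

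The first of these was intronic to a noncoding gene. Among coding genes the closest start site, at 1212217 bp, was that of PCDH18, which encodes a protocadherin. The region was 994 bp wide, held an AP-1 match and stood at percentile 94.7 of all control scores, yet no HNF4G-KO region touched it. The region with the HNF4 match stood at percentile 58.0 of the control list and was intergenic, 15236 bp from the start of ARHGAP24. It also carried a FOXA match. The lowered region with an HNF4 match, in an intron of the glutamate receptor gene GRIA2, went from percentile 44.5 among shared regions in control to 3.22 in HNF4G-KO and also carried 2 AP-1 matches.

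On chromosome 10, the highest-scoring KO-only region and the shared region that rose furthest in rank among those paired 1 to 1 are given for contrast.
chr10 KO-only, chr10:81600377-81600576: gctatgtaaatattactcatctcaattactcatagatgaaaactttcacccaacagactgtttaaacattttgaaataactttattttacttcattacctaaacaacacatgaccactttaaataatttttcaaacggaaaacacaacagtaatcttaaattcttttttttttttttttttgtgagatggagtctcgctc
chr10 shared and raised, chr10:49831777-49831976: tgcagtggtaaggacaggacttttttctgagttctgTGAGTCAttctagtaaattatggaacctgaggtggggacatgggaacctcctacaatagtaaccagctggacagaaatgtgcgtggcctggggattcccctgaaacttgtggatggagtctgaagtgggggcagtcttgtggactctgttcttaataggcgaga

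The KO-only region was intergenic, 274717 bp from the start of NRG3, a neuregulin gene, and stood at percentile 58.9 of the HNF4G-KO list. The raised region lay in an intron of PARG, which encodes the enzyme that removes poly(ADP-ribose) chains, and went from percentile 2.48 to 62.2. It held an AP-1 match. The highest-scoring control-only region of this chromosome, in an intron of ATRNL1, reached percentile 73.1 of the control list, against 94.7 for its counterpart on chromosome 4. The highest-scoring KO-only region of chromosome 4 was listed as 1 bp wide, at percentile 67.2, and is not shown.

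Chromosome 4 had the highest share of control-only regions among the autosomes and the lowest share of KO-only regions, and chromosome 10 the reverse. A control-only region is one with not 1 bp of overlap in the HNF4G-KO list, and a KO-only region is the reverse. On chromosome 4, 33.9% of the control regions were control-only (95% Wilson interval 32.7 to 35.3, 1746 of 5143), against 24.9% over all autosomes. The share on chromosome 10 was 18.5% (17.5 to 19.6, 951 of 5131). KO-only regions made up 4.45% of the chromosome 4 regions in HNF4G-KO (3.82 to 5.16, 162 of 3644) and 10.7% of those on chromosome 10 (9.82 to 11.6, 506 of 4744), against 6.8% over all autosomes. The HNF4G-KO list held 70.9% as many regions as the control list on chromosome 4, 92.5% as many on chromosome 10 and 82.2% over all autosomes. All intervals cover counting error only. When both lists were cut to the same number of regions by score, the shares were 23.6% and 10.9% control-only (15.0% over all autosomes) and 9.14% and 17.3% KO-only (12.8%). These shares chose the chromosomes and are a description with no test.

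The neighbors in this order were close on some axes and not on others. Next to chromosome 4 in control-only share came chromosome 21 at 30.9% and chromosome 2 at 29.4%. Next to chromosome 10 at the low end came chromosome 17 at 19.2% and chromosome 19 at 20%, and the interval of chromosome 10 overlapped those of both. In KO-only share, chromosomes 19 (4.51%), 21 (4.67%) and 15 (4.84%) were within the interval of chromosome 4. Chromosome 3, the next below chromosome 10, was at 8.62%, outside the interval of chromosome 10.

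Shared regions moved the same way. Each shared region was ranked by score among the shared regions of its own list, and the change is the percentile in HNF4G-KO minus that in control. The median change was -4.50 percentile points on chromosome 4 (95% interval of the median -4.85 to -4.05, n = 3397 shared regions) and 2.87 on chromosome 10 (2.51 to 3.20, n = 4180), with 0.10 on the other autosomes together. On chromosome 4, 66.9% of shared regions were lower in HNF4G-KO, where 49.5% were lower over all autosomes. On chromosome 10, 63.3% were higher, where 50.5% were higher over all autosomes. The autosomes nearest to these were chromosome 15 (-2.17) and chromosome 2 (-1.67) on the low side, and chromosome 17 (1.76) and chromosome 14 (1.68) on the high side. Regions paired 1 to 1 on chromosome 4 changed in width by a median of -73 bp from control to HNF4G-KO, those on chromosome 10 by -22 bp and those on the other autosomes by -45 bp.

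The difference ran along nearly the whole of both chromosomes. Each was cut into windows of 5 Mb, and a window was read where it held at least 20 regions of the class. On chromosome 4, 34 of 37 windows had a control-only share above the autosomal one, where 55.8% of all autosomal windows did. On chromosome 10, 24 of 27 windows lay below it, where 44.2% of all autosomal windows did. KO-only shares were below the autosomal share in 31 of 35 windows of chromosome 4 (55.1% of all autosomal windows) and above it in 25 of 27 windows of chromosome 10 (44.9% of all autosomal windows). The control-only share of a window ranged from 20.5% to 75% on chromosome 4, with a median of 34.1%, and from 12% to 31.8% on chromosome 10, with a median of 18.2%.

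**Figure D1:**
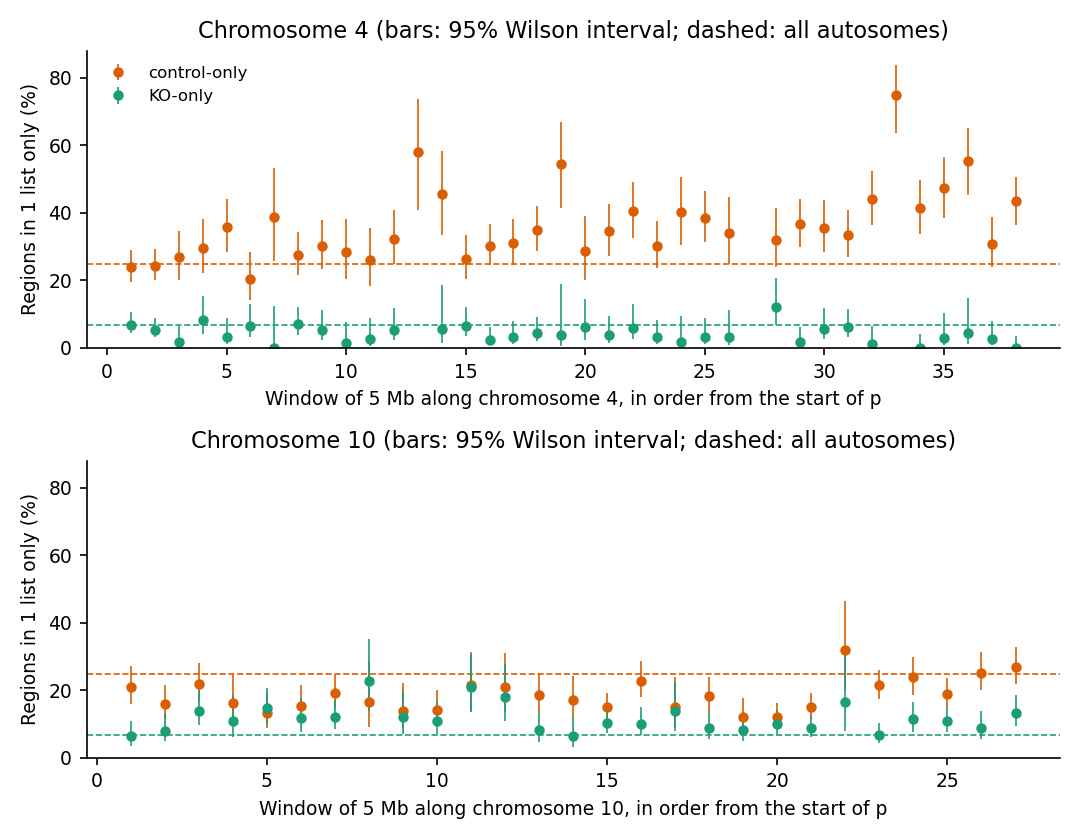
Control-only and KO-only shares (y axis, percent) in windows of 5 Mb in order along chromosome 4 (upper panel) and chromosome 10 (lower panel), with 95% Wilson intervals as bars and dashed lines at the shares over all autosomes. On chromosome 4 most control-only points lie above their line and most KO-only points below theirs, and chromosome 10 shows the opposite layout.

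The windows with the highest control-only shares on chromosome 4 held few regions. The window from 160 to 165 Mb held 68 control regions, of which 75% were control-only, and that from 60 to 65 Mb held 31, of which 58.1% were. In the window from 175 to 180 Mb, 55.3% of 94 control regions were control-only. The lowest share, 20.5% of 122 regions, was found from 25 to 30 Mb on the short arm. On chromosome 10 the lowest share was 12% of 275 regions, from 95 to 100 Mb, and the highest was 31.8% of 44 regions, from 105 to 110 Mb.

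Changes in rank followed the same map. The median change was below 0 in 33 of 35 windows of chromosome 4, against 56% of all autosomal windows. In 27 of them the 95% interval of the median lay wholly below 0, against 125 of 539 autosomal windows. On chromosome 10 the median was above 0 in 26 of 27 windows, against 44% of all autosomal windows. In 19 of them the interval lay wholly above 0, against 96 of 539 autosomal windows. The chromosome 10 window not above 0, from 55 to 60 Mb, had a median of -0.02 (-3.37 to 2.26). Of the 54 autosomal windows with the lowest medians, 25 came from chromosome 4, and of the 54 with the highest, 20 came from chromosome 10. Uniform direction was not seen on these chromosomes alone, since all 17 windows of chromosome 15 and 47 of 49 windows of chromosome 2 were also below 0. Their window medians centered on -2.85 and -1.80, against -6.22 for chromosome 4. Differences between chromosomes took up 44.3% of the variance of the autosomal windows, and 31.5% when chromosomes 4 and 10 were left out. Neighboring windows are not independent.

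**Figure D2:**
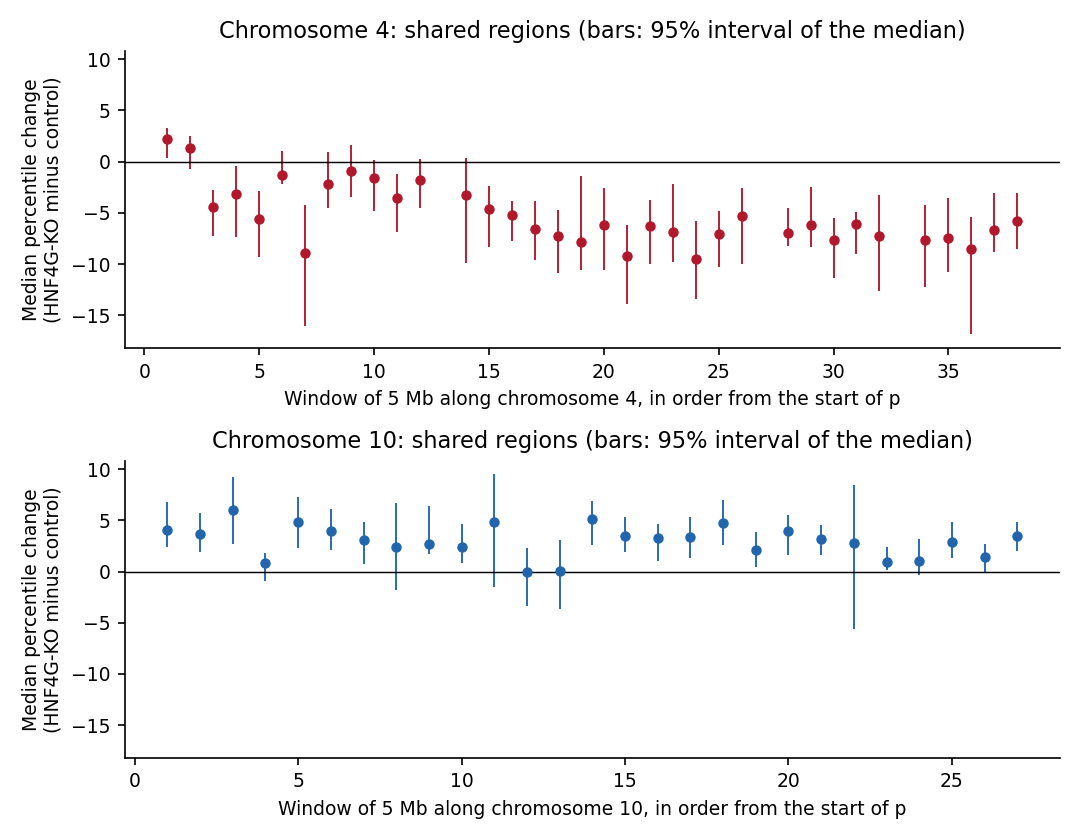
Median change in score percentile of shared regions, HNF4G-KO minus control (y axis, percentile points), in windows of 5 Mb with at least 20 shared regions, in order along chromosome 4 (upper panel) and chromosome 10 (lower panel), with 95% intervals of the median as bars. On chromosome 4 the first 2 windows are above 0 and the rest below, between -4.61 and -9.53 from window 15 on. On chromosome 10 all medians but 1 (-0.02) are above 0, with no comparable step.

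Chromosome 4 was not uniform. The first 10 Mb of the short arm, which hold WFS1, ADD1 and FGFR3 among other genes, differed from the rest, with medians of 2.18 (0.31 to 3.31) and 1.34 (-0.74 to 2.49) in their 2 windows. The positive values there were found at start-site regions, whose median was 3.34 (2.29 to 5.96, n = 148), while distal regions, more than 1 kb from any start site, were at -0.38 (-1.88 to 1.56, n = 348). With distal regions alone, 100% of the chromosome 4 windows were below 0. Distal regions over all autosomes were also shifted, with a median of -0.67 and 53.1% lower. The share of autosomal windows below 0 for distal regions alone was not computed. When the windows were divided at the 2 positions that removed the most variance, the breaks fell at 10 and 75 Mb and removed 85.6% of it. With 1 break, at 70 Mb, 66.1% was removed. High values were not particular to chromosome 4. Fitted in the same way, 2 breaks removed 82.6% on chromosome 22 (8 windows) and 81.4% on chromosome 21 (7 windows). With 1 break 71.5% was removed on chromosome 21 and 60.3% on chromosome 9. In the 3 segments the control-only share went from 24.2% (21 to 27.6, 158 of 654) through 30.0% (27.7 to 32.3, 445 of 1485) to 38.0% (36.3 to 39.8, 1143 of 3004). The KO-only share went from 6.13% through 5.05% to 3.66%, and the median change from 1.55 through -2.94 to -6.84. The break positions were found in the same values that they divide and lie on window edges. The segment from 10 to 75 Mb spans the centromere, whose satellite array was found at 49.1 to 51.9 Mb, so the steps did not fall at the border between the arms.

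Chromosome 10 had no such step. The best single break, at 110 Mb, removed 19.7% of the variance between its windows, and the best 2, at 15 and 110 Mb, removed 28.3%. Its 3 segments all had positive medians of 4.71, 3.03 and 1.97, control-only shares of 19.6%, 16.5% and 22.9%, and KO-only shares of 9.52%, 11.1% and 10.1%.

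By arm, the long arm of chromosome 4 and both arms of chromosome 10 were the extremes. Arms were first divided at the longest stretch without a region in either list, which turned out to be 57.4 to 60.5 Mb on chromosome 4 and 53.1 to 54.8 Mb on chromosome 10 and so not the centromere. With that division the median change was -1.54 (-2.07 to -0.81) on the short side and -6.71 (-7.43 to -6.05) on the long side of chromosome 4, and 3.38 (2.66 to 4.33) and 2.63 (2.21 to 3.07) on chromosome 10. Divided at the satellite arrays, a choice made after seeing the data, 4p was at -1.39 (-1.88 to -0.56, n = 1204) and 4q at -6.47 (-7.00 to -5.79, n = 2193), the lowest of 41 arms. The next lowest, 22p, was at -2.24 with 17 shared regions, followed by 15q at -2.17. Arm 10p was the highest of the 41 at 3.50 (2.70 to 4.62, n = 1111) and 10q the second highest at 2.64 (2.26 to 3.07, n = 3069), with 17q next at 1.83. The control-only share was 27.0% on 4p, 37.2% on 4q, 17.9% on 10p and 18.8% on 10q. With ranks taken among all regions of each list, which differ in length, both arms of chromosome 10 turned negative (-0.999 and -1.92) but lay above the median over all autosomes on that scale, -4.55.

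The chromosomes differed most clearly among regions of low and middle score. Weak regions are lost more readily from a list, so the shares were read within 10 equal classes of the control list by score, from 1 for the weakest to 10 for the strongest. In class 1, 84.1% of the chromosome 4 regions were control-only (80.5 to 87.2), 61.9% of those on chromosome 10 (57.5 to 66.2) and 75.7% of those on the other autosomes (74.9 to 76.5). In class 5 the shares were 32.2% (28.5 to 36.3), 12.1% (9.54 to 15.2) and 18% (17.2 to 18.7). In class 6 they were 19.2% (16.1 to 22.7), 3.09% (1.94 to 4.89) and 6.41% (5.96 to 6.89). In classes 1 to 8 the intervals of the 2 chromosomes did not overlap. In class 9 (0.72%, 0.28 to 1.84, and 0%, 0 to 0.69) and class 10 (0.46%, 0.13 to 1.66, and 0%, 0 to 0.83) they did, and from class 7 on the interval of chromosome 10 overlapped that of the other autosomes. In class 10, 2 of the 3 control-only regions of all autosomes lay on chromosome 4. If each class had lost regions at the autosomal rate, 25.1% of chromosome 4 regions and 24.6% of chromosome 10 regions would have been control-only, against the 33.9% and 18.5% observed.

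**Figure D3:**
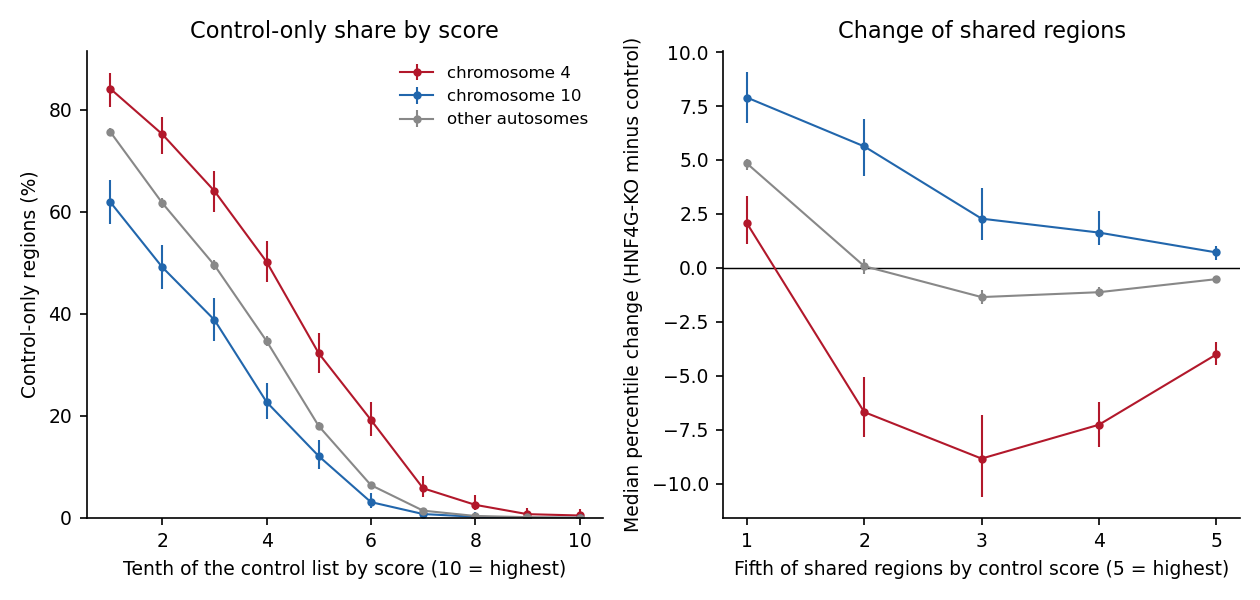
Left, control-only share (y axis, percent, with 95% Wilson intervals) by class of the control list by score (x axis, 10 being the highest scores) for chromosome 4, chromosome 10 and the other autosomes. Right, median percentile change of shared regions (y axis, percentile points, with 95% intervals of the median) by 5 classes of control score (x axis, 5 being the highest). Chromosome 4 lies above the other autosomes on the left and below them on the right in every class, and chromosome 10 on the other side of them, but on the left the intervals of the 2 chromosomes overlap in classes 9 and 10.

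Among shared regions, divided into 5 classes by control score, the offset was also present in each. In the lowest class the median change was 2.07 on chromosome 4 (1.1 to 3.31), 7.90 on chromosome 10 (6.74 to 9.08) and 4.84 on the other autosomes (4.55 to 5.06). Ranks near the bottom of a list have little room to fall. In the middle class they were -8.84 (-10.6 to -6.83), 2.28 (1.28 to 3.69) and -1.36 (-1.66 to -1.01). In the highest class, where 79.1% of the chromosome 4 regions were lower, they were -4.02 (-4.48 to -3.44), 0.71 (0.35 to 1.01) and -0.52 (-0.60 to -0.46).

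Distal regions carried most of the loss on chromosome 4. Distal here means more than 1 kb from any annotated transcription start site, and enhancers are of this kind, whereas start-site regions include promoters. The control-only share of distal regions was 38.1% on chromosome 4 and 20.7% on chromosome 10, against 28.3% over all autosomes. At start sites the shares were 16.6% (14.4 to 19.1), 10.3% (8.65 to 12.3) and 14.4% (14.0 to 14.8). The median change of distal regions was -5.99 on chromosome 4 (-6.74 to -5.47) and 2.45 on chromosome 10 (1.98 to 2.90), with -0.67 over all autosomes. Start-site regions were at -0.91 on chromosome 4 (-1.53 to -0.31) and 4.11 on chromosome 10 (3.36 to 4.85), with 1.49 over all autosomes (1.37 to 1.61). By median change, chromosome 4 was the lowest and chromosome 10 the highest of the 22 autosomes both at start sites and away from them. Divided at the satellite array, start-site regions on 4p were at 2.16 (1.01 to 2.92), an interval that holds the autosomal value, and those on 4q at -2.61 (-3.39 to -1.53). Divided at the longest stretch without a region, they were at 1.63 (0.64 to 2.49) and -2.77.

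Base composition differed between the chromosomes, and the change was highest in the most GC-rich regions with no steady rise below them. The median GC content of the central 200 bp was 46.5% on chromosome 4, the lowest of the autosomes, and 50.5% on chromosome 10 and on the other autosomes together. Start-site regions made up 19.3% of control regions on chromosome 4, 21% on chromosome 10 and 25.2% on the other autosomes. Within regions of 40 to below 50% GC the median change was -6.74 on chromosome 4 (-7.61 to -5.76), 2.09 on chromosome 10 (1.46 to 2.69) and -1.15 on the other autosomes (-1.33 to -1.01). At 60% GC or more it was 0.61 (-0.21 to 1.44), 4.64 (3.77 to 5.59) and 2.05 (1.93 to 2.18). Below 40% GC the medians were -6.19, 3.28 and -0.89. From 50 to below 60% GC they were -5.04, 2.57 and -0.20. The order of the 3 was the same in all 4 GC ranges examined, and chromosome 4 was below the other autosomes in each.

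HNF4 matches were rare, with shares on both chromosomes whose intervals held the autosomal value. Of control regions, 0.80% on chromosome 4 (0.59 to 1.08, 41 of 5143), 0.76% on chromosome 10 (0.56 to 1.04, 39 of 5131) and 0.73% over all autosomes held the HNF4 consensus in their central 200 bp. By class the share was 1.03% of control-only, 0.68% of shared and 0 of 162 KO-only regions on chromosome 4 (up to 2.32% by the Wilson interval). On chromosome 10 it was 1.05%, 0.69% and 0.20%, and over all autosomes 1.06%, 0.62% and 0.30%. Shared regions with a match had a median change of -9.32 on chromosome 4 (-17.5 to -3.08, n = 23), 0.95 on chromosome 10 (-4.91 to 7.78, n = 29) and -5.47 on the other autosomes (-6.38 to -4.00, n = 482). Those without a match were at -4.48, 2.88 and 0.12. The intervals of the matched regions held these values on chromosomes 4 and 10 but not on the other autosomes.

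The other consensus sequences were more frequent. AP-1 was matched in 26.8% of control regions on chromosome 4 and 26.7% on chromosome 10, against 24.3% over all autosomes. Shared regions with an AP-1 match were lower in rank change than those without on chromosome 4 (-6.67 and -4.01), on chromosome 10 (2.11 and 3.06) and on the other autosomes (-1.13 and 0.43). FOXA was matched in 5.42%, 4.33% and 4.38% of control regions. Among control-only regions of chromosome 4 the FOXA share was 5.84% (4.84 to 7.04) and over all autosomes 4.44% (4.20 to 4.68). The share was not highest in the control-only class. Shared regions of chromosome 4 held 5.21% (4.51 to 6.01) and its KO-only regions 8.02% (4.75 to 13.2, 13 of 162). Over all autosomes these were 4.36% and 4.87%. GATA was matched in 3.72% of control-only, 2.80% of shared and 6.17% of KO-only regions (10 of 162) on chromosome 4. Over all autosomes these GATA shares were 2.68%, 2.53% and 3.61%. A match is a string of letters in the window and not a bound site.

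At the genes of chromosome 4, control-only regions were counted per gene with no scaling for gene length, which favors long genes. Lost and gained are used here for control-only and KO-only regions, with no test. Over the whole chromosome 33.9% of control regions were control-only and 4.45% of HNF4G-KO regions KO-only. From 75 Mb onward the shares were 38.0% and 3.66%. The genes were picked by their counts. With 10 kb added on each side, INPP4B, which encodes a phosphatase of the phosphoinositide pathway, held the most, with 19 of 38 control regions absent from HNF4G-KO and 0 of 20 HNF4G-KO regions new. A shared region over a start site of INPP4B did not follow, standing at percentile 92.9 in control and 95.2 in HNF4G-KO. In all, 3 control and 4 HNF4G-KO regions overlapped its start sites. PALLD, which encodes the actin-bundling protein palladin, lost 14 of 29, and GALNTL6, a glycosyltransferase gene, 14 of 24. SHROOM3, an organizer of apical actin in epithelium, lost 14 of 35, close to the share from 75 Mb onward, and gained 2. Of its 21 shared regions 18 were lower, where 75.4% of those from 75 Mb onward were. SORCS2, a sorting receptor gene in the first 10 Mb, lost 14 of 43, where the share over that part was 24.2%. KO-only regions were few, the most being 3 of 5 at SLC4A4, a bicarbonate cotransporter gene of ductal epithelium that also lost 5 of 7 control regions. PPP2R2C and the overlapping genes TRIM2 and ENSG00000288637 had 2 KO-only regions each.

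Counts in both directions were more even on chromosome 10. Over the whole chromosome 18.5% of control regions were control-only, 10.7% of HNF4G-KO regions were KO-only and 63.3% of shared regions were higher. PARD3, a polarity gene, had 10 control-only of 51 control regions and 9 KO-only of 49 HNF4G-KO regions, and 27 of its 41 shared regions were higher. CAMK1D, a calcium-dependent kinase gene, had 5 of 28 and 9 of 32, with a median change of 10.3 over 23 shared regions. CDH23, an unusual cadherin, had 7 of 34 and 8 of 34, and 21 of 27 shared regions were higher. The control-only counts of PARD3, CAMK1D and CDH23 were close to the share of the chromosome. NEBL had 6 KO-only regions of 25 and ANK3, the ankyrin-G gene, 4 of 33 with 1 control-only of 29. GRID1, a glutamate receptor gene, lost the most on this chromosome, 13 of 37, and LRMDA lost 9 of 27. ITGB1, the integrin beta 1 chain, lost 8 of 22, and TCF7L2, a transcription factor of the Wnt pathway, lost 8 of 21 and gained 0.

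Start sites of protein-coding genes were lower a little more often than higher on chromosome 4 and mostly higher on chromosome 10. Of 432 shared start-site regions on chromosome 4, 238 (55.1%) were lower, with a median change of -0.60 (-1.11 to -0.12). Of 466 on chromosome 10, 354 (76.0%) were higher, with a median of 3.67 (2.80 to 4.8). These regions overlapped a coding start site. Over all autosomes 59.7% of regions within 1 kb of any start site, of coding and noncoding genes together, were higher. On that wider definition 44.6% were higher on chromosome 4 and 71.8% on chromosome 10. The largest drops among regions paired 1 to 1 on chromosome 4 were at a start site of ELOVL6, a fatty acid elongase (from percentile 43.7 to 1.35), and at SYNPO2, an actin-binding protein (71.4 to 36.9), FAT1, a giant atypical cadherin (38.1 to 7.67), CXCL5 (64.3 to 34.2) and NPY1R (26.3 to 1.35). At NPY1R the paired HNF4G-KO region, 200 bp wide, did not itself overlap a start site. Pairs that were not 1 to 1, as at SLC10A7 (79.8 to 37.8) and SMAD1 (61.9 to 28.1), set pieces of a region against a whole one and are less certain. The largest rises on chromosome 4 were at FAM53A (32.7 to 70.8), SGCB (19.1 to 54.9), USP46 (38.7 to 71.4), FNIP2 (31.9 to 64.6) and, not 1 to 1, KIAA0232 (41.1 to 78.4), and with 1 to 1 pairs alone TLR10 came next (8.31 to 39.9). FAM53A and KIAA0232 lie in the first 10 Mb, the part of the chromosome whose windows were above 0.

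The largest rises on chromosome 10 were at FAM53B (1.04 to 57.8), SEPHS1 (21.2 to 64.7), ASB13 (29.6 to 72.5), SLK, a kinase gene (10.2 to 51.7), and PIP4K2A (33.6 to 69.0). In pairs that were not 1 to 1, NUDT13 went from 29.6 to 93.5, ACTA2 from 31.7 to 82.0 and NT5C2 from 12.4 to 57.8. Each of these HNF4G-KO regions overlapped 2 control regions. The one at ACTA2, 1364 bp wide, was also the one paired at FAS, whose control region stood at 78.6, so these are not separate rises. The largest drops were at LRRTM3 (40.7 to 12.7), A1CF (22.8 to 4.38), CSTF2T (81.8 to 65.1), IFIT1 (45.4 to 30.3) and PLEKHS1 (37.8 to 25.4), all paired 1 to 1, and at KIAA1217 (59.0 to 23.7), which was not. A1CF encodes an RNA-binding protein of liver and gut.

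The listed gene groups were mixed on chromosome 4 and mostly higher on chromosome 10. Of the 38 listed genes on chromosome 4, 15 had a shared start-site region, of which 9 were lower and 6 higher, with a median change of -3.87, beside the 55.1% lower among all coding start sites of that chromosome. Of the 33 listed on chromosome 10, 18 had one, of which 16 were higher and 2 lower, with a median of 7.26, beside the 76.0% higher on that chromosome. The ERBB ligands of chromosome 4, which activate the EGF receptor family, had 3 of 3 start sites higher. EREG went from percentile 50.3 to 69.1, AREG from 67.9 to 69.9 and BTC from 79.4 to 82.2, while 11 of 18 shared regions in and around the 5 ligand genes were lower. EGF itself lost 7 of 11 control regions and its start-site region was not shared. The CXC chemokines, neutrophil attractants next to these ligands, had 4 of 6 start sites lower. CXCL5 went from 64.3 to 34.2, CXCL8 from 60.8 to 58.7 and CXCL3 from 73.3 to 83.5.

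Signaling and growth control genes, which lie from 94.8 Mb onward on the long arm, held 42 control-only of 105 control regions and 2 KO-only of 66, which is close to the shares of 38.0% and 3.66% over all regions from 75 Mb onward. INPP4B alone held 19 of the 42 control-only regions. Of the shared regions of the group 37 of 63 were lower, where 75.4% of those from 75 Mb onward were. At start sites 4 of 5 were lower with a median change of -22.6, and the pair at SMAD1 was not 1 to 1. From 75 Mb onward 67.2% of shared regions within 1 kb of any start site were lower, with a median change of -2.94. FBXW7, a ubiquitin ligase subunit and tumor suppressor, lost 5 of 10 regions, and its 5 shared regions were all lower. HHIP, an inhibitor of hedgehog signaling, lost 3 of 3. SPRY1, an inhibitor of receptor tyrosine kinase signaling, went from 44.8 to 22.3 at a start-site region, where 2 control and 3 HNF4G-KO regions overlapped its start sites. The receptor tyrosine kinases FGFR3, PDGFRA, KIT and KDR had 11 control regions in all, including 4 that were control-only. In HNF4G-KO they had 9, including 2 KO-only. They had no shared start-site region, and 5 of their 7 shared regions were higher. Of the alcohol dehydrogenase genes, which oxidize alcohols in liver and gut, 4 of 7 (ADH1A, ADH1B, ADH1C and ADH4) had no region in either list, nor had ALB (albumin) and FGA among the 5 genes of liver secreted proteins. Of the shared regions of the alcohol dehydrogenases 2 of 3 were higher, and of those of the liver proteins 1 of 2.

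The growth control and kinase group of chromosome 10 had 4 of 4 start sites higher, with a median change of 6.86, and 18 of its 29 shared regions were higher. MAPK8 (the kinase JNK1) went from 65.4 to 86.2 and MAP3K8 from 90.2 to 93.6. FAS (78.6 to 82.0) and FGFR2 (83.9 to 94.2) were not paired 1 to 1, and the HNF4G-KO region of FAS was also the one paired at ACTA2. Lineage factors had 4 of 5 start sites higher. Of their 39 control regions 10 were control-only, and of 31 HNF4G-KO regions 2 were KO-only, against 18.5% and 10.7% on the whole chromosome. TCF7L2 alone held 8 of the 10 control-only regions, among its 21 control regions. HHEX, a factor of foregut development, went from 77.4 to 91.5, and KLF6, whose 6 shared regions were all higher, from 34.7 to 61.1 in a pair that was not 1 to 1. ZEB1, a driver of epithelial to mesenchymal change, was the exception, from 71.9 to 69.0. Among adhesion and cytoskeleton genes 5 of 6 start sites were higher, with VIM (vimentin) from 68.4 to 77.3 and VCL (vinculin) from 84.7 to 92.6, and ITGB1 was lower, from 72.3 to 69.9. Of the control regions of this group 36 of 146 were control-only, beside 18.5% on the whole chromosome. Of its HNF4G-KO regions 21 of 131 were KO-only, beside 10.7%. Both hexokinase genes were higher, HK1 from 63.1 to 82.6 and HKDC1 from 47.3 to 53.9. The pancreatic lipases had 6 control regions and no shared start-site region, and of the drug and retinoid cytochromes CYP2C18 alone had one, at percentile 5.94 in control and 6.71 in HNF4G-KO.

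**Figure D4:**
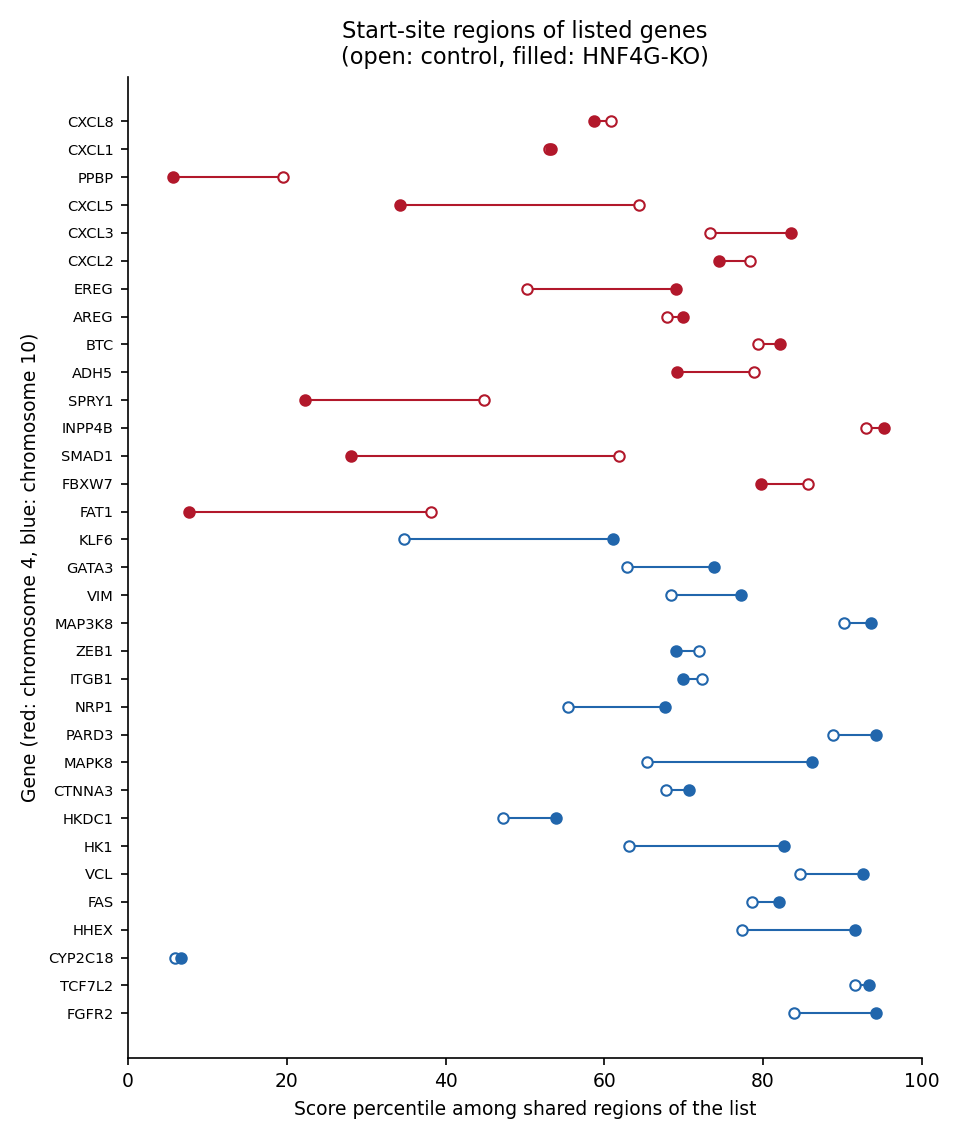
Score percentile among shared regions (x axis) of the start-site region of each listed gene that had one in both lists, with control as open and HNF4G-KO as filled circles, for chromosome 4 (red, 15 genes) and chromosome 10 (blue, 18 genes) in order along each chromosome. On chromosome 10, 16 of 18 filled circles lie to the right of the open ones, and on chromosome 4, 6 of 15 do.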

How the data were processed

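ATAC-seq (Omni-ATAC) was performed by the authors on HPAF-II control (Cas9) and HNF4G-KO cells, 4 replicates each, grouped from sample titles. Per the labels, the submitters' processing notes name Bowtie2 2.2.6, MACS2 2.1.1.20160309 and DiffBind, and the builds hg38 and GRCh38 for human, without stating their role. The authors deposited 1 region list per group with a score per region. The scale of the deposited score and the handling of replicates are not given in the sources used here, so the score was used only for ranks within a list. Scores ran from 21 to 1952 in control and from 20 to 1482 in HNF4G-KO. Depth is unknown. All region ends lay within hg38 chromosomes. The mouse KPC lists were not used here.

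Regions were placed by their center. A control region was paired with the HNF4G-KO region of longest overlap, and percentiles were taken among shared regions. Start sites came from GENCODE v44, and sequences from hg38. Wilson intervals and binomial order-statistic intervals of the median (both 95%) cover counting error only. No test was made, since there is 1 list per group. Python 3.11.15, NumPy 2.4.6, pandas 2.3.3 and SciPy 1.17.1 were used. Code was tested on simulated lists. The chromosomes, gene lists and tests were chosen with earlier results of these data known. Genes named are, for each chromosome, the 5 protein-coding genes with the most control-only and the most KO-only regions within the gene and 10 kb on each side, the 5 whose shared start-site region changed most in each direction, the highest-scoring control-only and KO-only region, and the listed groups. The rankings restricted to 1 to 1 pairs, the GC ranges, the satellite arrays (100 kb bins with a low share of distinct 24-base words in their first 20 kb) and the autosomal centering were chosen after values were seen. Of the genes, markers and regions these rules and lists selected, 1 listed gene, 1 marker and 2 regions are not reported here, and the gene and the marker are left out of the counts.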

Additional observations from a re-analysis of the deposited data

How the results depend on the processing

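In all settings below both chromosomes kept their side of the autosomal share, and the arm medians kept their sign except in 2 cases given last. With at least 50% of a region covered as the condition for sharing, the control-only share was 39.2% on chromosome 4 and 22.1% on chromosome 10 (29.0% over all autosomes) and the KO-only share 5.43% and 12.4% (8.21%). With a gap of up to 500 bp counted as shared, these were 31.0% and 15.8% (22%), and 3.57% and 8.98% (5.52%). In the stronger-scoring 50% of each list, the control-only share was 16.8% on chromosome 10 (21.9%), and the KO-only shares were 2.93% and 7.32% (4.42%). In lists cut to the same 97047 regions they were 23.6% and 10.9% control-only (15.0%) and 9.14% and 17.3% KO-only (12.8%). For distal regions alone they were 38.1% and 20.7% control-only (28.3%), and 11.8% KO-only on chromosome 10 (7.83%). The median change of distal regions was -2.78 on 4p and -8.29 on 4q, and that of regions in the stronger 50% of the control list was -2.89 on 4p, -8.14 on 4q, 1.67 on 10p and 1.23 on 10q. All windows (100%) were below 0 on chromosome 4 for distal regions, and above 0 on chromosome 10 with windows of 2 or 10 Mb or shifted along. The shares of all autosomal windows under these settings were not computed. With percentiles among all regions of each list, 4p was at -6.39 and 4q at -12.0, and the sign turned on 10p (-0.999) and 10q (-1.92). The lists differ in length, and the median over all autosomes was then -4.55, above which both arms of chromosome 10 still lay. Of 60 values recomputed, 28 stayed within the 95% interval of the value in the report. No paired analysis was possible because each group has 1 list with no replicate columns, and for the same reason no replicate could be left out.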
